A study of Mus musculus with 35 samples.

Results

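The comparison described here set tracheal allografts at day 14 after transplantation against allografts at day 4, with 5 arrays in each group, to ask how gene expression in a mismatched graft differed between the early days and the time when rejection is under way. The study used a heterotopic model, in which a mouse trachea is placed outside its normal site. Allografts went to MHC-incompatible recipients and isografts to MHC-compatible recipients, and the 10 isograft arrays of the same days (5 for day 14 and 5 for day 4) served as the graft without that mismatch. The study's other arrays held native tracheas and grafts of both kinds at day 25, in groups of 5, and entered the shared estimate of the spread. Strain, age, sex and any drug given to the recipients were not given in the sources used here, and whole grafts were measured, so donor and recipient RNA were read together. Of 22626 non-control probe sets on the array, 11992 had a log2 intensity of at least 5 in at least 5 of the 10 allograft arrays and were kept. Probe sets for 1 gene gave 7381 genes of the 12393 named on the array, each gene read through its brightest such probe set.

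MHC molecules display peptides to T cells, and a graft that carries foreign MHC molecules is attacked by T cells of the recipient. Activated T cells and natural killer (NK) cells release interferon-gamma, which raises antigen presentation and chemokines such as those that attract further T cells, and they kill target cells with granzymes. In the trachea the airway epithelium, made of secretory, ciliated and basal cells over cartilage rings, is a main target, and in this model the epithelium is lost before the airway lumen fills with fibrous tissue.

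The median log2 intensity of an array lay between 5.16 and 5.29 in these 10 arrays. The correlation between arrays had a median of 0.945 within day 14 allografts, 0.937 within day 4 allografts and 0.893 between them. Day 14 replicate 1 stood apart, with a median correlation of 0.895 with its group against 0.941 to 0.954 for the other 4 arrays. It also held the highest level of its group for fat markers (10.91, against 6.97 to 10.02 in the other 4 day 14 arrays) and for oxidative phosphorylation genes (11.62, against 9.70 to 10.47). As a check of the labelled tissue, the mean list level in native tracheas was 10.93 for secretory epithelium and 8.52 for cartilage. Lists of adjoining tissue were also read there, at 10.01 for fat, 7.94 for skeletal muscle and 7.54 for thyroid and parathyroid. Nothing in the labels says whether the arrays of a group came from separate animals, so p-values measure the spread between arrays, which may be partly technical.

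In day 14 allografts 288 genes were higher and 410 were lower than in day 4 allografts, 9.46% of those tested in all, by limma's moderated test with a Benjamini-Hochberg adjusted p under 0.05 over all 11992 probe sets. They made up 3.9% and 5.55% of the 7381 genes, which is the background for each count below, and 181 (2.45%) and 185 (2.51%) of them differed by at least 2-fold. Whatever the test, the arrays of the groups did not overlap for 3.54% of genes on the higher side and 5.76% on the lower side. They did not overlap for 186 of the higher genes (2.52%) and 277 of the lower genes (3.75%). The median difference over all 7381 genes was -0.0436 on the log2 scale. Centring each array on 9 reference genes shifted that median to 0.21 and gave 714 higher and 172 lower genes, so that 80.6% of the called genes were higher in place of 41.3%. Before centring, these 9 genes had a median difference of -0.266 in allografts, and 1 of them lay above 0. Without replicate 1 of day 14 the counts were 293 higher and 285 lower. In that repeat the lists described below had 6 T cell, 8 cytotoxic, 4 B and plasma cell, 13 interferon-gamma response, 6 MHC class I, 5 MHC class II, 7 complement and 9 matrix genes called higher. The lower calls were 14 for secretory, 9 for general and 3 for basal epithelium, 4 for cartilage, 11 for mitosis and 5 for DNA replication.

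T cell and cytotoxic genes were among those higher in day 14 allografts. All 18 genes of the T cell list that lay on the array had a positive difference, with a median of 1.13 on the log2 scale, and 5 of the 11 that passed the filter were called higher and none lower. Cd3d, a chain of the CD3 complex that signals for the T cell receptor, had log2 intensities of 5.97, 6.10, 6.82, 7.12 and 7.33 in day 14 allografts, against 3.40, 3.32, 3.96, 3.77 and 3.21 in day 4 allografts. All day 14 arrays were above all day 4 arrays, which lay below the filter's level of 5. Cd3d and Cd3g passed the filter through the day 14 arrays alone, as did Gzme, Ido1, Jchain, Cd79b and Pla1a below, so that a difference was built into their selection. For such genes the adjusted p is given from a fit of all probe sets without the filter. Their log2 differences are approximate, since values at the low end of the scale are compressed. Cd3d was higher by 3.14 (adjusted p = 8.14e-05 in the unfiltered fit). Cd3g, which encodes a further chain of the complex, was higher by 2.60 (adjusted p = 8.78e-05 in the unfiltered fit), and Cd3e, another chain, which passed through 4 day 14 arrays and 1 day 4 array, rose by 1.25 (SE 0.28, adjusted p = 0.00298). Cd8a, the co-receptor of cytotoxic T cells, averaged 5.51 ± 0.22 in day 14 allografts and 4.67 ± 0.36 in day 4 allografts (SD, n = 5 each), a difference of 0.84 that missed the threshold (adjusted p = 0.0853) although the arrays did not overlap. In bulk tissue, more cells of a type and more RNA per cell cannot be told apart. The T cell count was 3 without day 14 replicate 4, without day 14 replicate 5 or without day 4 replicate 4, and 6 without day 14 replicate 1.

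Of the 19 cytotoxic and NK cell genes on the array 18 were above 0 (median 1.11). The 8 that passed the filter, 1 of them through the day 14 arrays alone, were called higher. Gzmb, the protease granzyme B that is delivered into target cells, had log2 intensities of 7.82, 8.60, 8.68, 8.56 and 9.09 in day 14 allografts, against 6.12, 6.04, 7.08, 5.33 and 5.74 in day 4 allografts. Every day 14 array was above every day 4 array, and Gzmb rose by 2.49 (SE 0.28, adjusted p = 2.93e-07). Nkg7, a protein of cytotoxic granules, rose by 2.69 (SE 0.30, adjusted p = 2.31e-07) and likewise showed no overlap, with 6.77, 7.82, 7.84, 7.95 and 8.38 in day 14 allografts, against 4.96, 5.31, 5.82, 4.54 and 4.70 in day 4 allografts. Ccl5, a chemokine made by activated T and NK cells, rose by 2.31 (SE 0.38, adjusted p = 8.06e-05), and Ctsw, a protease of cytotoxic lymphocytes, rose by 1.498 (SE 0.25, adjusted p = 0.0001). Gzme, another granzyme, is not a member of this list and so not among the 8. It had 5.48, 6.83, 7.76, 6.96 and 6.25 in day 14 allografts, against 3.85, 3.86, 3.89, 4.16 and 3.71 in day 4 allografts, and it was higher by 2.76 (adjusted p = 2.56e-05 in the unfiltered fit). The groups of Gzme did not overlap, and its day 4 arrays lay within 3.71 to 4.16. Ifng, which encodes interferon-gamma itself, stayed below the filter with 4.42, 5.09, 5.54, 5.74 and 5.34 in day 14 allografts, against 2.98, 3.18, 3.53, 3.17 and 3.02 in day 4 allografts. In the unfiltered fit it rose by 2.05 (SE 0.22, adjusted p = 3.56e-07), and the arrays did not overlap.

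B and plasma cell genes were in part higher. Jchain, which joins IgM and IgA into polymers, had 5.53, 6.63, 6.77, 9.12 and 7.60 in day 14 allografts, against 2.42, 2.69, 2.48, 2.77 and 2.77 in day 4 allografts, and Ighm, the constant region of IgM, had 7.998, 9.46, 10.69, 10.60 and 10.81 in day 14 allografts, against 7.67, 4.32, 5.75, 4.02 and 6.59 in day 4 allografts. Ighm differed widely between day 4 arrays, where replicate 1 was highest, and all of them lay below the lowest day 14 array. Jchain was higher by 4.50 (adjusted p = 0.000173 in the unfiltered fit), Ighm rose by 4.24 (SE 0.76, adjusted p = 0.000264), and Igkv8-30, a kappa light chain variable segment, rose by 3.94 (SE 0.69, adjusted p = 0.000195). Of the 15 genes of the list on the array 12 were above 0 (median 0.486). Of the 8 that passed the filter 4 were called higher, and 2 of these 4, Jchain and Cd79b, had passed through the day 14 arrays alone. The count fell to 2 when day 14 replicate 2, 3 or 4 or day 4 replicate 1, 2, 3 or 4 was left out. Jchain and Ighm kept their calls with every array left out in turn, while Cd79b, part of the B cell receptor, lost its call without each of these 7 arrays and in the unfiltered fit (adjusted p = 0.061), and Prdm1, a regulator of plasma cells, kept its call only without day 14 replicate 1. Probe sets for immunoglobulin segments can read related segments, and 2 of the 4 other probe sets of Ighm were not called.

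**Figure D1:**
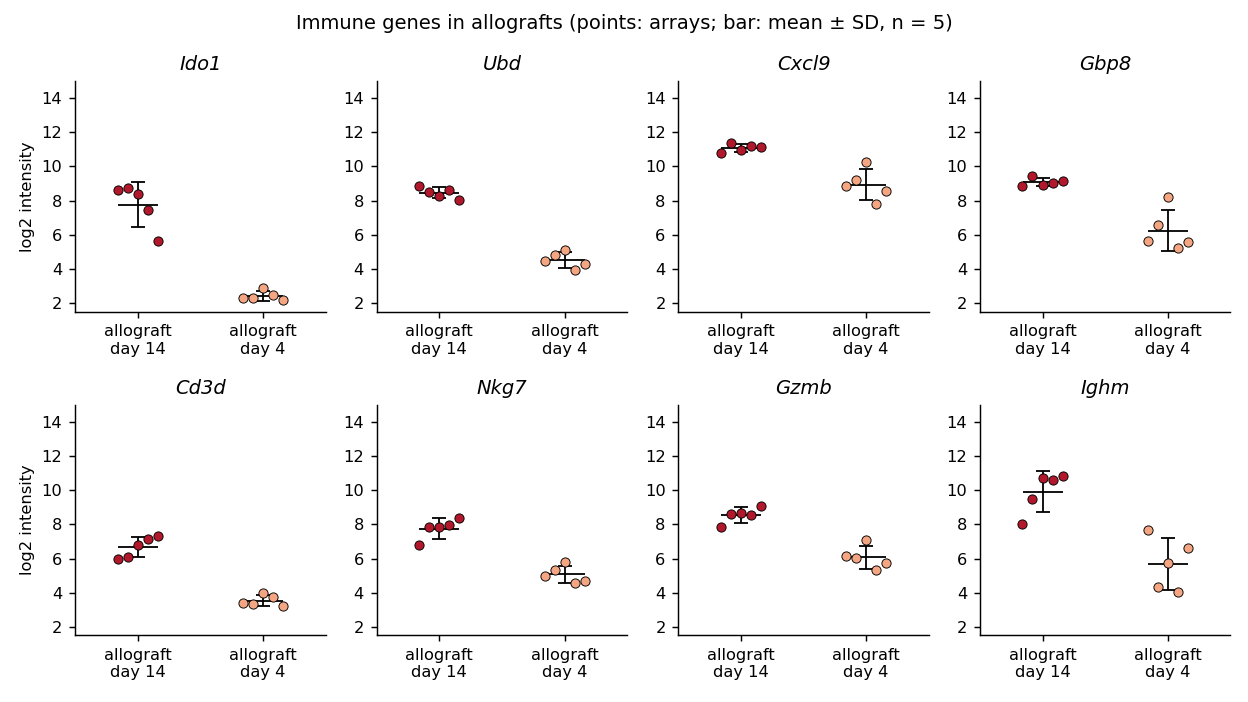
Log2 intensity of 8 immune genes on each allograft array, day 14 left of day 4. Points are arrays, and the bar and whiskers give the mean and SD of 5. In all 8 panels every day 14 array lies above every day 4 array. For Ido1 and Cd3d this was built into their selection, since they passed the filter through the day 14 arrays alone. The Ido1 arrays of day 14 spread from 5.62 to 8.77, while the Cxcl9 arrays spread from 10.76 to 11.38.

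Interferon-gamma response genes were mostly higher in day 14 allografts, with 13 of 17 tested called higher, none lower, and a median of 0.956 over the 20 on the array. Of the 17 tested, 1 (Ido1) had passed the filter through the day 14 arrays alone. Ido1, the tryptophan-degrading enzyme that interferon-gamma induces, had log2 intensities of 8.63, 8.77, 8.37, 7.46 and 5.62 in day 14 allografts, against 2.28, 2.32, 2.86, 2.50 and 2.16 in day 4 allografts. It lay at the low end of the scale in all day 4 arrays, and it was higher by 5.35 (adjusted p = 2.35e-12 in the unfiltered fit). Ubd, a ubiquitin-like protein induced by interferon-gamma and tumour necrosis factor, had 8.85, 8.53, 8.27, 8.65 and 8.05 in day 14 allografts, against 4.46, 4.82, 5.13, 3.92 and 4.30 in day 4 allografts. Its groups lay well apart, and it rose by 3.94 (SE 0.21, adjusted p = 3.57e-15). Cxcl9, which draws activated T cells into tissue, was already bright at day 4 and had 10.76, 11.38, 10.96, 11.20 and 11.13 in day 14 allografts, against 8.84, 9.19, 10.28, 7.78 and 8.57 in day 4 allografts, a rise of 2.16 (SE 0.41, adjusted p = 0.000574). Gbp8, a guanylate-binding protein, rose by 2.83 (SE 0.40, adjusted p = 9.84e-06). Day 4 replicate 3 was the highest day 4 array for Ido1, Ubd, Cxcl9 and Gbp8, and day 4 replicate 4 was the lowest for Ubd, Cxcl9 and Gbp8. Cxcl10 and Iigp1 of the same list, picked here after their values were seen, had differences of 0.85 and 0.90 that were not called. Without day 4 replicate 4 the count was 8 of 17.

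Promoters are shown for Igtp, Irgm2 and Gbp2, called members of this list chosen after their values and sequences were seen, because they carry a short motif of the interferon response. Interferon regulatory factors bind the ISRE, whose core was searched as GAAA, any 2 bases and GAAA again, on both strands. The windows run from 250 bases before to 50 bases after the transcription start in RefSeq (GRCm38.p6), with motif matches in capitals. Igtp and Irgm2 are related interferon-inducible GTPases encoded near each other on chromosome 11, and both windows hold an ISRE core match. Their probe sets, like those of the guanylate-binding proteins, may also read related family members, so their separate values are uncertain.
Igtp, chr11:58199306-58199605, + strand: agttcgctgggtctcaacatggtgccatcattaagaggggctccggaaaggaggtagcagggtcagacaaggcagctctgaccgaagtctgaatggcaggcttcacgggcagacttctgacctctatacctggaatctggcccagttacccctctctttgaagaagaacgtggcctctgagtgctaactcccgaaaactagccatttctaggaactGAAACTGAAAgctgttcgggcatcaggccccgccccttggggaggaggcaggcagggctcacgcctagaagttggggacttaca
Irgm2, chr11:58214727-58215026, + strand: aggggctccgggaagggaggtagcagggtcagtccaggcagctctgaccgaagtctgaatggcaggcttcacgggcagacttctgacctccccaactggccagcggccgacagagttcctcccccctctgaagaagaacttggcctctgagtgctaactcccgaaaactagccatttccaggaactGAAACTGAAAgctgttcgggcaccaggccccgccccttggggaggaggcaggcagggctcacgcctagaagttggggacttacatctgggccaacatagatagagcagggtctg
Gbp2, chr3:142620413-142620712, + strand: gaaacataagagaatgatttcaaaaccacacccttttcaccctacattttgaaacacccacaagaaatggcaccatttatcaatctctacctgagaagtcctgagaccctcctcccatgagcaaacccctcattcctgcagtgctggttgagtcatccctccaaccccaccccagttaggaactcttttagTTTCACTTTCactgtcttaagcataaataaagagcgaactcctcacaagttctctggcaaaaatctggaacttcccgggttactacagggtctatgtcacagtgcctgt
In Igtp the ISRE core match stood at -34 to -25 from the start, and in Irgm2 at -64 to -55. Gbp2 held the ISRE core on the other strand at -59 to -50. Windows were found for 10 of the 13 called members. The ISRE core was present in 6 of these 10, against 3.44% of all 32851 promoter windows. A gene counted when any of its windows held the core, while the share of all windows counts single windows. The list consists of interferon response genes whatever their change, so this share describes the family and not the difference between days. Among 8 called MHC class I genes with a window, 1 held the core. Cxcl9 and Ubd did not hold it in this window, and a match is a description of letters, not of binding. Igtp rose by 1.47, Irgm2 by 1.38 and Gbp2 by 1.45 on the log2 scale.

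Antigen presentation genes were higher in day 14 allografts. In the MHC class I list 14 of 14 genes had a positive difference (median 0.741), and 9 were called higher. Tapbp, which holds MHC class I to the peptide transporter, rose by 1.099 (SE 0.21, adjusted p = 0.000718), while its second probe set gave 0.91 (adjusted p = 0.22). Psmb8, an immunoproteasome subunit, had 9.91, 10.01, 10.78, 9.92 and 10.27 in day 14 allografts, against 9.41, 8.98, 8.85, 8.01 and 8.80 in day 4 allografts, with no overlap, and rose by 1.37 (SE 0.33, adjusted p = 0.00633). Tap1, a subunit of the peptide transporter, rose by 1.19 (SE 0.28, adjusted p = 0.00565). Outside the rule for named genes, the heavy chains H2-K1 and H2-D1 rose by 0.89 and 0.71, and B2m, their light chain, by 0.65. H2-K1 and H2-D1 are close paralogs that differ between strains, so donor and recipient alleles could not be told apart. Without day 4 replicate 4 the class I count was 5. In the MHC class II list 5 of the 9 that passed the filter were higher. H2-Ab1, an MHC class II chain, had 10.73, 11.01, 11.22, 11.25 and 11.55 in day 14 allografts, against 9.92, 9.55, 9.65, 9.22 and 9.22 in day 4 allografts, with no overlap, and rose by 1.64 (SE 0.23, adjusted p = 7.76e-06). H2-Eb1, Cd74 (the invariant chain) and H2-DMa (a peptide-loading chain) rose by 1.56, 1.37 and 1.66. The class II count was 5 or 6 with each array left out. Of the 17 tested type I interferon response genes, Zbp1, a nucleic acid sensor, was the single member called, with a rise of 1.19 (SE 0.26, adjusted p = 0.00243), and 17 of the 19 on the array lay above 0 (median 0.279).

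Among checkpoint genes, Cd274, which encodes the T cell inhibitory ligand PD-L1, had 8.03, 8.28, 7.84, 8.42 and 7.95 in day 14 allografts, against 6.54, 6.80, 7.53, 5.64 and 5.78 in day 4 allografts, with no overlap, and rose by 1.64 (SE 0.43, adjusted p = 0.0117). Of the 15 genes of that list on the array, 3 passed the filter, Ido1 through the day 14 arrays alone. Cd274 and Ido1 were called higher, and all 15 had a positive difference (median 0.565). Complement genes were higher in 6 of 11 tested cases, with 9 of the 12 on the array above 0. C2, a component of the classical pathway convertase, had 8.09, 8.68, 9.11, 8.15 and 8.57 in day 14 allografts, against 7.54, 4.89, 5.29, 4.99 and 5.17 in day 4 allografts, where day 4 replicate 1 stood far above the other day 4 arrays without reaching the day 14 range. It rose by 2.94 (SE 0.40, adjusted p = 6.20e-06), C1s1 and C1ra, proteases of the C1 complex, by 2.14 (SE 0.36, adjusted p = 0.000105) and 1.80 (SE 0.33, adjusted p = 0.000444), and Serping1, the inhibitor of these proteases, by 1.92 (SE 0.26, adjusted p = 6.12e-06). Of 24 tested macrophage and monocyte genes 3 were higher and 1 was lower, and the median of the 26 on the array was 0.0534. Aif1, a macrophage calcium-binding protein, rose by 1.47 (SE 0.34, adjusted p = 0.00403). C1qb and C1qc, chains of the first complement component, were called higher at 0.94 and 1.12, but not without day 4 replicate 4 (0.83 and 0.95, adjusted p = 0.0519 and 0.0641), and in that repeat the macrophage list had 1 higher and no lower call. The lower member, Cd14, a co-receptor for bacterial lipopolysaccharide, differed by -1.15 and lost its call without day 14 replicate 1 or 2 or day 4 replicate 2 or 4. Csf1r, Lyz2 and Adgre1, common macrophage markers picked after their values were seen, had differences of 0.41, 0.34 and -0.17 that were not called.

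Acute inflammation genes had 2 calls among 16 tested, both lower. Il6, an early inflammatory cytokine, had 3.15, 3.16, 4.24, 5.42 and 4.47 in day 14 allografts, against 7.73, 8.36, 7.76, 8.75 and 5.17 in day 4 allografts, and fell by 3.47 (SE 0.50, adjusted p = 1.14e-05). Day 4 replicate 5 was far below the other day 4 arrays and was the only one of that group to overlap with day 14. The neutrophil chemokine Cxcl2 was also called lower (-2.28), a call kept only without day 14 replicate 5 when arrays were left out in turn, so that the list had 1 call in the other 9 repeats. The median over the 20 genes of the list was -0.319. Of 10 tested neutrophil genes the called member was Ltf, lactoferrin, which airway epithelium also makes, at -2.06 (adjusted p = 0.0107). It was not called without day 14 replicate 5 (-1.41, adjusted p = 0.0529). Mmp9, a gelatinase of neutrophils and other leukocytes, averaged 10.42 ± 0.53 in day 14 allografts and 8.64 ± 0.33 in day 4 allografts, with no overlap but an adjusted p of 0.0607. No dendritic cell gene of 10 tested was called by limma, with 2 at an unadjusted p under 0.05 and 1 call without day 14 replicate 1. Kit, the stem cell factor receptor of the mast cell list, was called lower at -0.59, a call kept only without day 14 replicate 2 or 5 or day 4 replicate 1 or 5. Its second probe set gave 0.20 (adjusted p = 0.623), and the mean of both gave -0.20 (adjusted p = 0.485). The alternative macrophage activation list went both ways, with 5 of the 11 genes on the array above 0 and a median of -0.0402. Retnla, Ccl8, Ccl11 and Clec10a were called higher of 9 tested, each with overlapping arrays, but 0 to 1 calls were made without day 14 replicate 2, 3 or 4 or day 4 replicate 2, 4 or 5. Arg1 and Chil3, picked after their values were seen, had differences of -1.43 and -1.58 without overlap that were not called (adjusted p = 0.4 and 0.0605).

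Secretory epithelial genes had the lowest median difference of the 41 lists. Of 18 tested genes 13 were lower in day 14 allografts and none was higher, and the median over the 23 on the array was -2.36. Scgb1a1, the club cell secretory protein, had log2 intensities of 9.15, 4.49, 6.43, 6.93 and 6.78 in day 14 allografts, against 10.94, 11.62, 11.65, 10.17 and 11.998 in day 4 allografts. All day 4 arrays were above 10 and all day 14 arrays below 10, and it fell by 4.52 (SE 0.53, adjusted p = 4.73e-07), or 22.9-fold. Scgb3a1, a secretoglobin of airway secretory cells, had 7.47, 5.83, 5.75, 5.25 and 3.11 in day 14 allografts, against 10.34, 11.63, 10.92, 9.12 and 11.48 in day 4 allografts, and fell by 5.22 (SE 0.50, adjusted p = 2.41e-08). Bpifa1, an antimicrobial protein of airway surface liquid, had 8.92, 6.34, 7.44, 6.94 and 4.91 in day 14 allografts, against 11.71, 13.17, 12.37, 10.58 and 12.34 in day 4 allografts, and fell by 5.12 (SE 0.42, adjusted p = 6.13e-10). In both genes day 14 replicate 1 was the highest and replicate 5 the lowest of the day 14 arrays, and no day 14 array reached the day 4 range. Scgb3a2, a further secretoglobin, fell by 4.55 (SE 0.56, adjusted p = 9.71e-07), with day 4 replicate 4 (6.74) the lowest of its group and close to the highest day 14 array (6.45). Pigr, which carries IgA across epithelium, Reg3g, an antibacterial lectin, and Bpifb1, a relative of Bpifa1, fell by 3.68, 4.51 and 3.64. Sftpd, a collectin that binds microbes, fell by 3.46, and Muc5b, the main mucin of healthy airways, fell by 3.11 (SE 0.56, adjusted p = 0.00027) with overlapping arrays. The count lay between 12 and 14 with each array left out. Mean levels of the whole list ran from 5.04 to 6.64 in day 14 allografts and 7.29 to 8.96 in day 4 allografts, with a mean of 10.93 in native trachea.

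Of general epithelial genes 9 of 23 tested were called lower and none higher, and all 29 on the array had a negative difference (median -0.905). Foxa1, a transcription factor of airway epithelium, had 5.41, 4.67, 5.46, 4.43 and 3.71 in day 14 allografts, against 7.07, 8.65, 8.36, 7.06 and 9.72 in day 4 allografts, with a gap between the groups, and fell by 3.44 (SE 0.38, adjusted p = 2.31e-07). Epcam, an epithelial adhesion molecule, had 7.44, 6.76, 5.39, 4.64 and 3.99 in day 14 allografts, against 9.04, 8.80, 7.64, 7.96 and 9.23 in day 4 allografts, with no overlap, and fell by 2.89 (SE 0.46, adjusted p = 6.75e-05). Krt8 and Krt18, the keratin pair of simple epithelium, fell by 2.23 (SE 0.38, adjusted p = 0.000138) and 1.98 (SE 0.35, adjusted p = 0.000238). For Krt8 day 14 replicate 5 (3.87) lay far below the other day 14 arrays (6.14 to 6.83), and without that array 5 genes of the list were called. Day 14 replicate 5 also had the lowest list level of its group for secretory, general and basal epithelium.

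Basal cells, the stem cells of this epithelium, gave a less uniform picture. Of 16 tested genes 4 were lower, among them Trp63, the basal transcription factor, which had 4.42, 4.93, 4.89, 3.77 and 4.36 in day 14 allografts, against 6.49, 6.53, 6.52, 5.23 and 6.96 in day 4 allografts, with no overlap, and was lower by 1.87 (adjusted p = 0.00046 in the unfiltered fit). Trp63 passed the filter through the day 4 arrays alone, so that a difference without overlap was built into its selection. Krt15 and Col17a1, a keratin and a hemidesmosome collagen, fell by 2.94 (SE 0.61, adjusted p = 0.00165) and 2.16 (SE 0.50, adjusted p = 0.00472). Krt5, the standard basal keratin, had 8.88, 9.54, 9.54, 8.23 and 6.41 in day 14 allografts, against 10.67, 9.50, 9.48, 9.26 and 9.67 in day 4 allografts. The groups overlapped, replicate 5 was again the lowest day 14 array, and its difference of -1.19 was not called (adjusted p = 0.227). Ciliated cell genes were low in both groups: Foxj1, the regulator of motile cilia, had 4.55, 4.62, 4.24, 5.05 and 4.22 in day 14 allografts, against 4.24, 4.43, 4.59, 4.61 and 6.53 in day 4 allografts, and 12 of 15 list genes were below the filter. List levels of ciliated genes ran from 3.76 to 3.96 in day 14 allografts and from 3.73 to 4.24 in day 4 allografts, with a mean of 5.48 in native trachea. None of the 3 tested ciliated genes was called by limma, and none had an unadjusted p under 0.05. Of 9 tested ion and water transport genes 3 were lower. Atp1b1, a subunit of the sodium pump, and Aqp4, a water channel, fell by 3.05 (SE 0.44, adjusted p = 1.28e-05) and 2.52 (SE 0.55, adjusted p = 0.00257), while Slc12a2, a chloride cotransporter, kept its call only without day 4 replicate 1 when arrays were left out, and its 2 other probe sets were not called (-0.16 and -0.27). In the xenobiotic and retinoid list Cbr2 and Aldh1a1, enzymes of airway epithelium, fell by 2.96 (SE 0.55, adjusted p = 0.000463) and 2.04 (SE 0.50, adjusted p = 0.00776), while Fmo1 and Adh1 rose by 2.60 (SE 0.55, adjusted p = 0.00171) and 1.70 (SE 0.39, adjusted p = 0.00374). For Fmo1 the fat-rich day 14 replicate 1 was the highest array at 9.66, and the other 4 day 14 arrays still lay above every day 4 array. That list had 3 higher and 2 lower calls, and 3 higher and 4 lower without day 14 replicate 1 or without day 4 replicate 4.

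**Figure D2:**
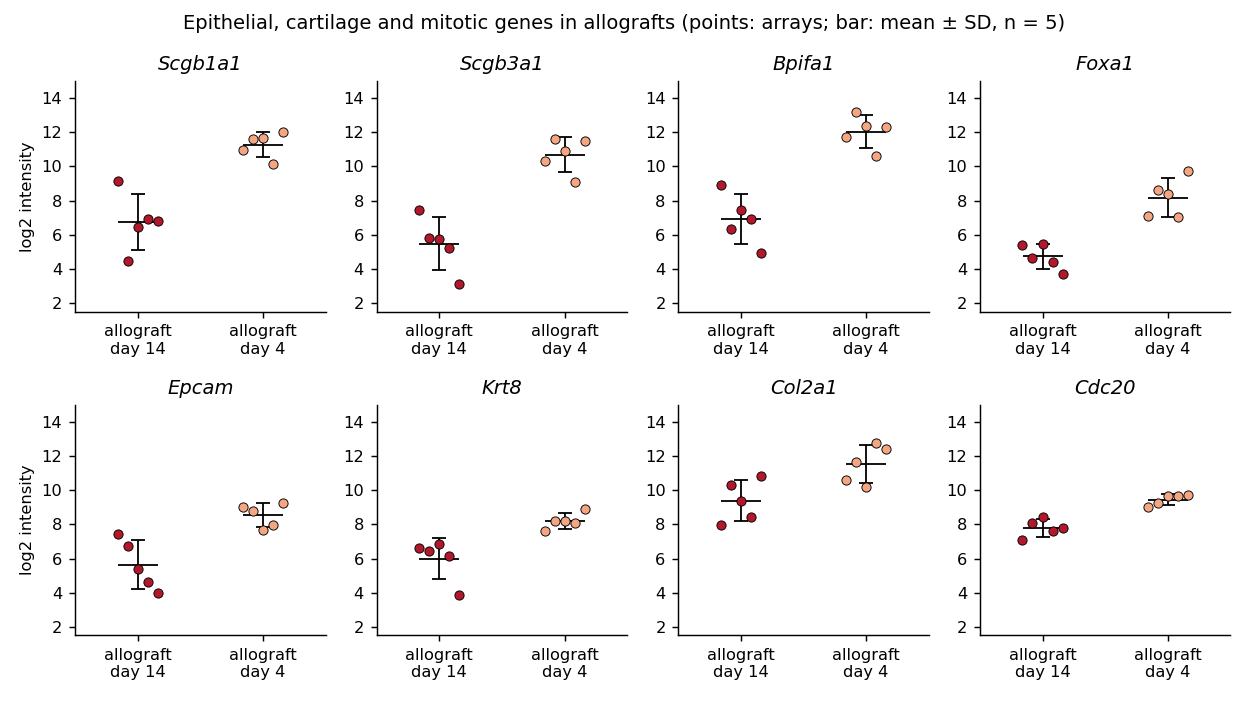
Log2 intensity of 8 genes that were lower in day 14 allografts, with day 14 left of day 4. Points are arrays, and the bar and whiskers give the mean and SD of 5. The 5 day 14 arrays of Scgb3a1 lie between 3.11 and 7.47 and its day 4 arrays between 9.12 and 11.63, while the Col2a1 arrays of the groups overlap.

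Of 20 tested cartilage genes, 1 of them kept through the day 4 arrays alone, 6 were called lower and none higher. Of the 22 on the array 21 had a negative difference (median -1.33). Prg4, lubricin of joint surfaces and superficial cartilage, had 8.39, 8.26, 9.81, 8.87 and 8.37 in day 14 allografts, against 11.43, 11.40, 10.92, 12.20 and 11.06 in day 4 allografts, and fell by 2.66 (SE 0.36, adjusted p = 3.66e-06), with no overlap. Col2a1, the main collagen of cartilage, had 7.97, 10.31, 9.35, 8.44 and 10.80 in day 14 allografts, against 10.59, 11.65, 10.20, 12.73 and 12.43 in day 4 allografts, which overlap, and fell by 2.15 (SE 0.56, adjusted p = 0.0115). Without day 4 replicate 4, its brightest array, the fall of Col2a1 was 1.84 (adjusted p = 0.0513). Col9a1, a minor cartilage collagen, fell by 2.79 (SE 0.66, adjusted p = 0.00529), and a second, dimmer probe set gave -0.81 (adjusted p = 0.281). The cartilage level differed between arrays of a group. Day 4 replicate 1 had the lowest list level of its group (6.57, against 7.49 to 9.003 in the others) and day 14 replicate 1 that of the other group (5.62, against 6.54 to 7.86). The count was 13 without day 4 replicate 1 and 3 without day 4 replicate 4. Day 4 replicate 1 was also the day 4 array with the highest fat level. The part of tissue composition in these results was not tested.

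Of 35 tested matrix genes 7 were called higher and 1 lower, and 27 had a positive difference (median 0.336). Mmp2, a gelatinase of fibroblasts, had 11.26, 11.10, 11.98, 12.05 and 11.85 in day 14 allografts, against 10.27, 9.37, 10.02, 9.62 and 10.404 in day 4 allografts, and rose by 1.71 (SE 0.24, adjusted p = 8.15e-06) with no overlap. Postn, a matrix protein of fibroblasts in repair, rose by 1.499 (SE 0.30, adjusted p = 0.000941), and Thbs2, a matricellular protein, rose by 1.56 (SE 0.29, adjusted p = 0.000463). Mmp13, a collagenase, rose by 2.10 (SE 0.56, adjusted p = 0.0133) with overlapping arrays. Col1a1, the main fibrillar collagen, averaged 13.53 ± 0.19 in day 14 allografts and 12.67 ± 0.64 in day 4 allografts (SD, n = 5 each), and its difference of 0.86 was not called (adjusted p = 0.0847). The lower member was Eln, elastin, at -0.92, a call kept only without day 14 replicate 5 or day 4 replicate 1 or 3. The higher count ran from 5 to 10 with each array left out, and it was 16 when arrays were centred on the reference genes.

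None of 11 tested smooth muscle genes was called by limma, with 1 at an unadjusted p under 0.05. Acta2, smooth muscle actin, had 10.72, 11.03, 11.34, 11.23 and 10.99 in day 14 allografts, against 11.45, 11.16, 11.48, 11.08 and 11.67 in day 4 allografts, a difference of -0.31. Of 22 endothelial genes 1 was higher and 2 were lower. Vwf, the clotting factor carrier of endothelium, rose by 1.44 (SE 0.32, adjusted p = 0.00322), while Lyve1, a receptor of lymphatic endothelium, had 5.396, 4.48, 6.09, 5.90 and 4.83 in day 14 allografts, against 6.91, 7.25, 8.50, 7.63 and 7.04 in day 4 allografts, with no overlap, and fell by 2.13 (SE 0.48, adjusted p = 0.00372). Flt4, the receptor VEGFR3 of lymphatic endothelium, was called lower at -0.82 but not without day 14 replicate 2 (-0.66, adjusted p = 0.0667) or with reference gene centring (-0.57, adjusted p = 0.0863). Its second probe set gave -0.40 (adjusted p = 0.114). In the Schwann cell and nerve list Ncam1, an adhesion molecule, rose by 1.74 (SE 0.28, adjusted p = 6.17e-05), and Erbb3, the neuregulin receptor of Schwann cells that epithelium also carries, fell by 1.89 (SE 0.32, adjusted p = 0.000117).

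Proliferation genes were lower in day 14 allografts. All 29 mitosis genes on the array had a negative difference (median -1.09). Of 27 tested, 1 of them kept through the day 4 arrays alone, 15 were called lower. Cdc20, an activator of the anaphase-promoting complex, had 7.07, 8.10, 8.46, 7.60 and 7.77 in day 14 allografts, against 9.03, 9.24, 9.65, 9.63 and 9.71 in day 4 allografts, with no overlap, and fell by 1.65 (SE 0.36, adjusted p = 0.0027). Bub1, a kinase of the spindle checkpoint, and Cenpf, a kinetochore protein, fell by 1.52 (SE 0.27, adjusted p = 0.000195) and 1.47 (SE 0.30, adjusted p = 0.00108). Top2a and Mki67, common markers of cycling cells, had differences of -0.74 and -1.001 that were not called, Mki67 being picked after its values were seen. The mitosis count was 11 to 15 with each array left out and 8 with reference gene centring. Among DNA replication genes 12 of 20 tested were lower (median of 26 on the array -0.849). Uhrf1, which maintains DNA methylation at replication forks, had 5.07, 5.66, 5.53, 5.15 and 6.08 in day 14 allografts, against 6.83, 7.53, 6.79, 6.92 and 7.56 in day 4 allografts, with no overlap, and fell by 1.63 (SE 0.22, adjusted p = 3.44e-06). The replication count was 5 without day 14 replicate 1, 7 without day 4 replicate 2, 6 without day 4 replicate 5 and 5 with reference gene centring. Day 14 replicate 1 had the lowest mitosis level of its group (5.58, against 6.11 to 6.40).

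The promoters of Cdc20 and Cenpf are shown, chosen after their sequences were seen, because called mitosis genes often share the CHR motif TTTGAA, bound by the DREAM and MuvB complexes, and the CCAAT box bound by NF-Y. Both were searched on both strands as TTTGAA and CCAAT, and no CHR match overlapped a CCAAT match in these windows.
Cdc20, chr4:118437294-118437593, - strand: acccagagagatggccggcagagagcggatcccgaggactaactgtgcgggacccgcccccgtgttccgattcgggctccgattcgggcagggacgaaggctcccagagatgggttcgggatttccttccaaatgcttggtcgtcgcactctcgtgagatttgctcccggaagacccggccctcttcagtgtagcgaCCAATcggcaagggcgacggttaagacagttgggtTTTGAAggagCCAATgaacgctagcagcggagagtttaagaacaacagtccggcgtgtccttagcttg
Cenpf, chr1:189688037-189688336, - strand: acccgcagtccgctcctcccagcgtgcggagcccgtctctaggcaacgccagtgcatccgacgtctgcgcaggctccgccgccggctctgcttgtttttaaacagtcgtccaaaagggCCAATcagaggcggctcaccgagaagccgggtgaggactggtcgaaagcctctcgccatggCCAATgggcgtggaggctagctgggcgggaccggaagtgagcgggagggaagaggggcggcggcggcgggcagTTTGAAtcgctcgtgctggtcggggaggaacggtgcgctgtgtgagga
Cdc20 held the CHR letters at -18 to -13, between CCAAT matches at -53 to -49 and -8 to -4 from the start. Cenpf held them at 3 to 8, with CCAAT matches at -132 to -128 and -71 to -67. Of 14 called mitosis genes with a window, 10 held TTTGAA and 12 held CCAAT, against 17.9% and 37.4% of all promoter windows. A gene counted when any of its windows held the letters, while the shares of all windows count single windows. The list consists of cell cycle genes whatever their change, so these shares describe the family and not the difference between days.

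In the hypoxia and glycolysis list Adm, the vasodilator adrenomedullin, was the single call of 22, lower at -1.38, and it was not called without day 14 replicate 1 (-1.16, adjusted p = 0.0728) or day 4 replicate 4 (-1.32, adjusted p = 0.0504). Of 16 sterol and fatty acid synthesis genes 4 were called lower, Idi1, Sqle, Msmo1 and Cyp51, enzymes of sterol synthesis, and none of these had overlapping arrays. Idi1 and Sqle fell by 1.196 (SE 0.26, adjusted p = 0.00291) and 1.19 (SE 0.30, adjusted p = 0.0087). Cyp51, at -0.89, kept its call only without day 4 replicate 2 when arrays were left out in turn. It was not called in the unfiltered fit (adjusted p = 0.0597) or with reference gene centring (-0.64, adjusted p = 0.155). Of the 19 genes on the array 7 were above 0 (median -0.168), and without day 4 replicate 1 the list had 3 lower and 1 higher calls. No oxidative phosphorylation gene of 20 and no cell death gene of 14 was called by limma, each list having 1 gene at an unadjusted p under 0.05, and 1 cell death gene was called without day 14 replicate 1. Cox6a1, a subunit of cytochrome oxidase, had 13.82, 12.84, 12.57, 12.42 and 12.45 in day 14 allografts, against 12.39, 11.999, 12.35, 12.21 and 12.47 in day 4 allografts, with day 14 replicate 1 highest. Among 15 lysosomal genes the single call was Ctsk, a collagen-degrading protease of osteoclasts and fibroblasts, which had 10.02, 10.34, 10.37, 10.43 and 10.30 in day 14 allografts, against 8.36, 8.29, 8.32, 7.97 and 8.70 in day 4 allografts, with no overlap, and rose by 1.96 (SE 0.28, adjusted p = 1.14e-05). Among 9 housekeeping genes used for the alternative scaling, Hprt fell by 0.79 (SE 0.18, adjusted p = 0.00306), a call lost when arrays were centred on those 9 genes (-0.54, adjusted p = 0.0627). Of 7 leukocyte adhesion genes Itgb7, an integrin of gut-homing lymphocytes, was called at 0.51, and not without day 14 replicate 3, 4 or 5 or day 4 replicate 4 or 5. The platelet chemokine Pf4 was the called member of 3 blood and platelet genes, lower at -0.96, and it was not called without day 14 replicate 1 (adjusted p = 0.0816) or day 4 replicate 1 (adjusted p = 0.0554).

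Markers of tissue that adjoins the trachea also differed. Tg, thyroglobulin, which the thyroid makes as the precursor of its hormones, had 4.67, 3.98, 3.97, 3.50 and 4.00 in day 14 allografts, against 9.45, 10.24, 8.99, 8.20 and 9.84 in day 4 allografts. No day 14 array was above 5 and no day 4 array below 8. Tg and Iyd passed the filter through the day 4 arrays alone, so that a difference was built into their selection. Tg was lower by 5.32 (adjusted p = 3.56e-07 in the unfiltered fit), and Iyd, which recovers iodide in the thyroid, was lower by 2.68 (adjusted p = 0.000544 in the unfiltered fit). Pth, parathyroid hormone, was named after its values were seen: it lay below the filter and fell by 4.96 in the unfiltered fit (adjusted p = 0.000455). List levels of thyroid and parathyroid genes ran from 3.34 to 3.58 in day 14 allografts and from 4.16 to 5.16 in day 4 allografts, while Slc5a5, Dio1, Pax8 and Nkx2-1 of the same list differed by less than 0.1 and were below the filter in both. Fat markers had a positive difference in all 15 genes (median 2.08) but none of 12 tested was called by limma, with 8 at an unadjusted p under 0.05, and their level ran from 6.97 to 10.91 in day 14 allografts and 6.11 to 8.21 in day 4 allografts. Without day 4 replicate 1, the fat-rich array of its group, 6 of 12 fat genes were called higher, and 3 without day 14 replicate 5. Fabp4, a fatty acid carrier of adipocytes, had 14.36, 14.18, 11.97, 12.52 and 12.39 in day 14 allografts, against 12.99, 11.93, 12.08, 12.08 and 11.82 in day 4 allografts. Skeletal muscle levels ran from 3.58 to 4.39 in day 14 allografts and from 3.54 to 6.74 in day 4 allografts, none of 7 tested genes was called by limma (2 at an unadjusted p under 0.05), and 2 were lower without day 4 replicate 5. Skin markers stayed low in both groups, at 3.28 to 3.73 in day 14 allografts and 3.15 to 4.86 in day 4 allografts. The part of such tissue in the gene results was not tested, and thyroid, fat or muscle left on a graft and change within that tissue cannot be told apart here.

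**Figure D3:**
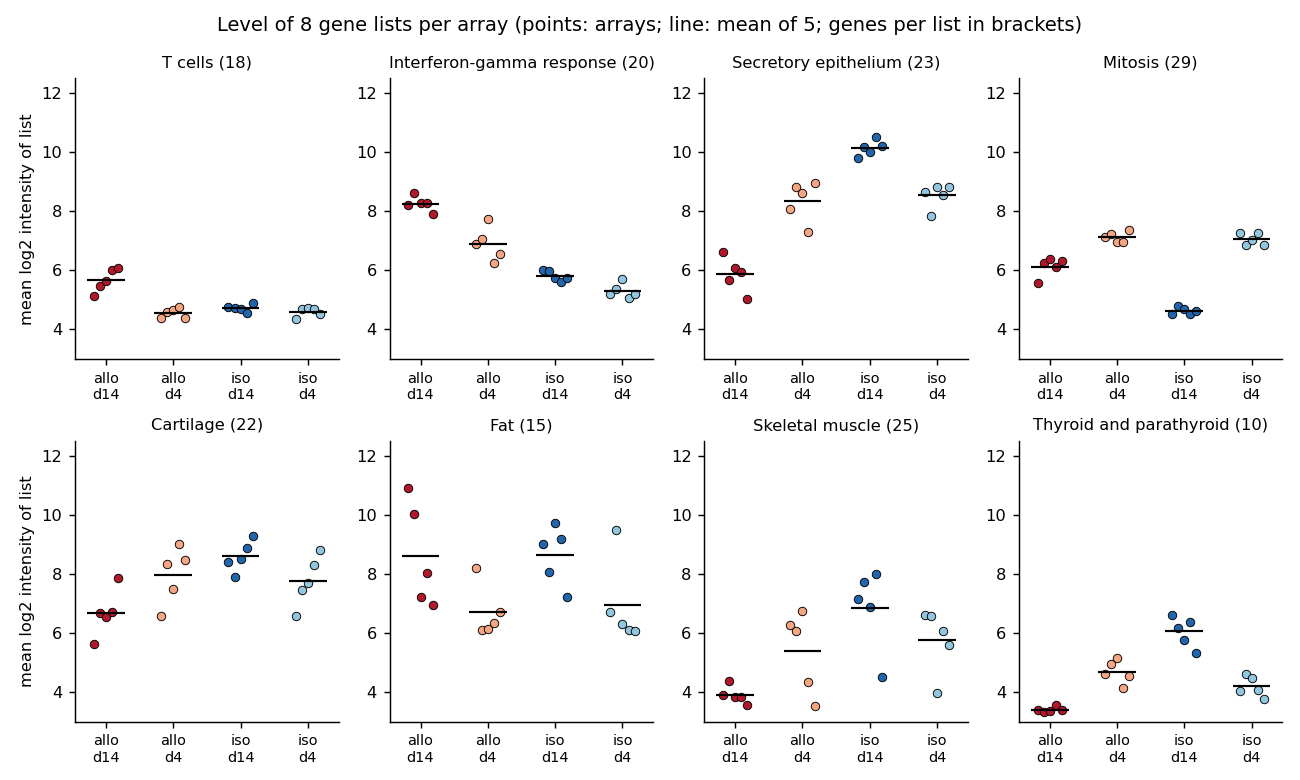
Mean log2 intensity of 8 gene lists on each array for allografts (day 14, then day 4) and isografts (day 14, then day 4), with the mean of 5 as a line and the number of genes in brackets. T cell and interferon-gamma lists are highest in day 14 allografts. Secretory genes lie at 5.04 to 6.64 in day 14 allografts and at 9.79 to 10.51 in day 14 isografts. Fat and skeletal muscle levels spread widely within groups.

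Several genes named for the size of their change fell outside the lists. C1qtnf3, a secreted relative of adiponectin, had 10.28, 10.99, 10.61, 11.57 and 11.25 in day 14 allografts, against 7.46, 8.44, 7.63, 6.52 and 8.01 in day 4 allografts, with no overlap, and rose by 3.33 (SE 0.39, adjusted p = 5.10e-07). Pcsk5, a proprotein convertase, had 7.57, 8.25, 9.31, 8.81 and 8.88 in day 14 allografts, against 7.08, 4.92, 5.55, 4.74 and 5.52 in day 4 allografts, with day 4 replicate 1 the highest of its group, and rose by 3.00 (SE 0.38, adjusted p = 1.28e-06). Tnmd, tenomodulin of tendon and ligament, and Zic1, a zinc finger transcription factor, rose by 3.08 (SE 0.44, adjusted p = 9.51e-06) and 3.22 (SE 0.54, adjusted p = 0.000104). Pla1a, a phospholipase specific for phosphatidylserine, was higher by 2.92 (adjusted p = 0.000687 in the unfiltered fit). Among the falls, Bex1, a small protein of nerve and endocrine cells, had 2.79, 2.82, 2.86, 3.00 and 2.85 in day 14 allografts, against 6.72, 7.81, 8.90, 6.48 and 6.12 in day 4 allografts, with day 14 arrays at the low end of the scale, and it was lower by 4.34 (adjusted p = 1.99e-06 in the unfiltered fit). Dio2, which converts thyroxine into its active form, had 5.45, 3.45, 4.80, 4.98 and 2.69 in day 14 allografts, against 8.30, 8.57, 8.52, 9.16 and 8.22 in day 4 allografts, with no overlap, and fell by 4.28 (SE 0.49, adjusted p = 3.10e-07). Prom1, a membrane protein of the apical surface of epithelium, had 4.03, 3.13, 2.85, 3.09 and 2.75 in day 14 allografts, against 6.53, 7.82, 7.68, 5.33 and 9.04 in day 4 allografts, with no overlap, and was lower by 4.11 (adjusted p = 3.10e-05 in the unfiltered fit). Bex1 and Prom1 passed the filter through the day 4 arrays alone, as Trp63 did, so that a difference without overlap was built into their selection.

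**Figure D4:**
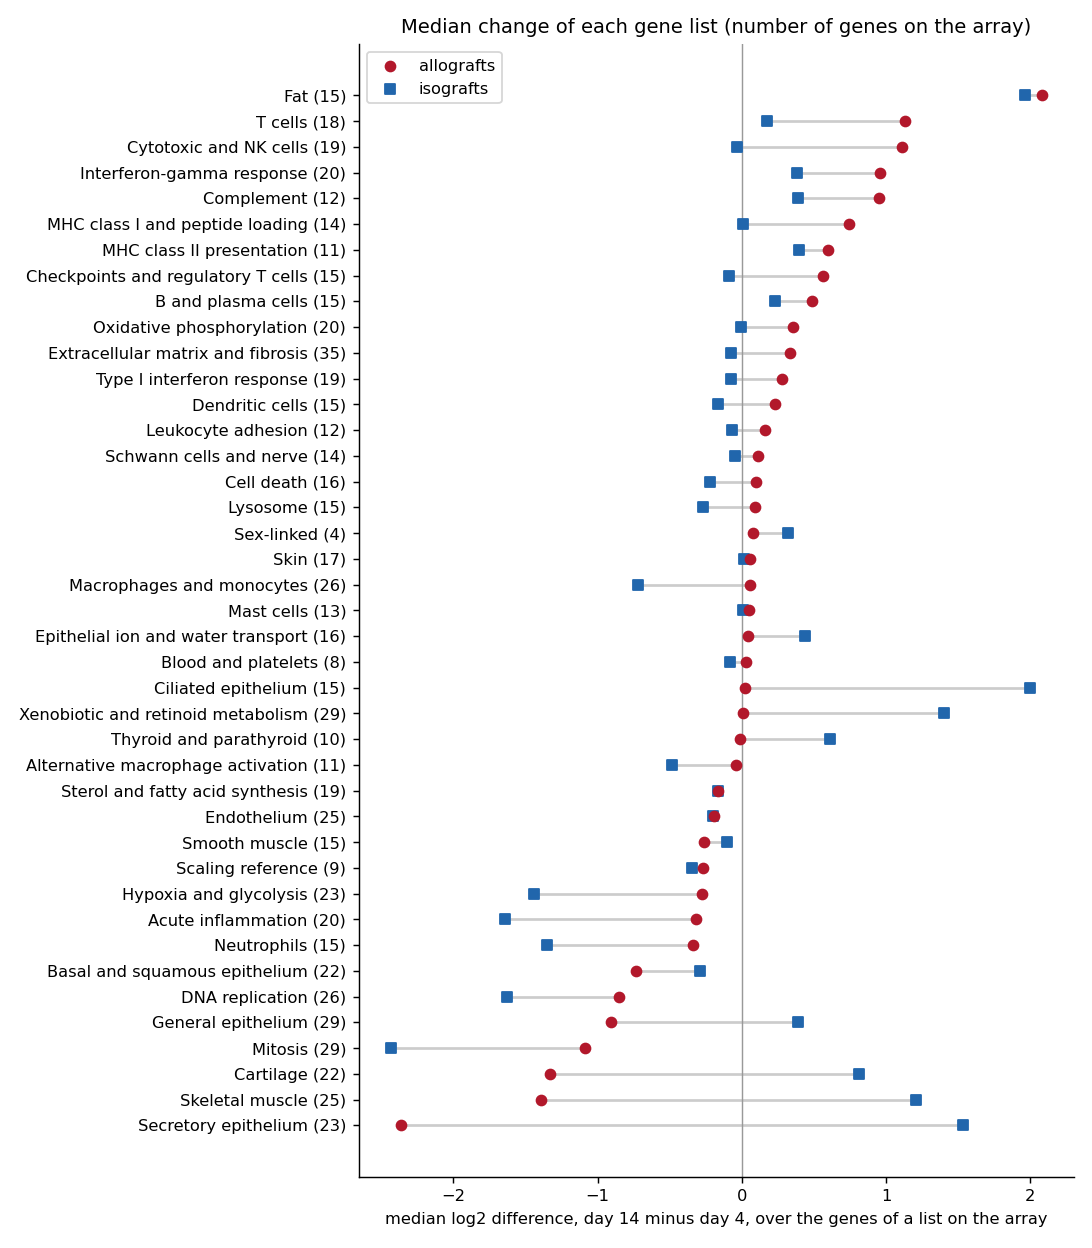
Median log2 difference, day 14 minus day 4, over all genes of each of 41 lists on the array, for allografts (circles) and isografts (squares), with the number of genes in brackets. Secretory epithelium has a median of -2.36 in allografts and 1.53 in isografts, and mitosis -1.09 and -2.43, while fat lies near 2 in both grafts.

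The isografts gave the same interval without MHC mismatch. Of the same 7381 genes 1808 (24.5%) were called between day 14 and day 4 isografts. Day 14 isografts had 766 genes higher (10.4%) and 1042 lower (14.1%) than day 4 isografts. Of the 288 genes higher in day 14 allografts, 107 were also higher in day 14 isografts (37.2% of the 288 and 14% of the 766), and 5 were lower. Of the 410 genes lower in day 14 allografts, 184 were also lower in day 14 isografts (44.9% of the 410 and 17.7% of the 1042), while 63 were higher (15.4% of the 410 and 8.22% of the 766). Across the 7381 genes the differences of both grafts, which share no array, had a Pearson r of 0.3 and the same sign in 64%, as a description only, since genes are not independent and both rest on arrays normalized together.

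The test of the difference itself, allograft change minus isograft change, called 486 genes (6.58%), 204 above (2.76%) and 282 below (3.82%), and 264 and 259 without day 14 allograft replicate 1. Secretory genes led the lower side: 14 of 18 tested were called, and 11 of these 14 were called higher in day 14 than in day 4 isografts. Scgb1a1 averaged 6.76 ± 1.66 in day 14 allografts and 11.27 ± 0.73 in day 4 allografts, against 13.61 ± 0.41 in day 14 isografts and 11.09 ± 0.56 in day 4 isografts (SD, n = 5 each), and the changes differed by -7.03 (SE 0.75, adjusted p = 1.07e-07). The changes differed by -8.37 (SE 0.79, adjusted p = 9.45e-09) for Scgb3a2, -7.60 (SE 0.71, adjusted p = 9.11e-09) for Scgb3a1 and -7.35 (SE 0.60, adjusted p = 6.32e-10) for Bpifa1. Prom1, Reg3g, Bpifb1, Serpinb11 (a serine protease inhibitor family member) and Muc5b followed, from -7.24 to -5.37. For Tg the changes differed by -9.04 (adjusted p = 8.84e-09 in the unfiltered fit), with 12.39 ± 1.90 in day 14 isografts and 8.66 ± 0.71 in day 4 isografts. General epithelium had 9 of 23 below, cartilage 8 of 20 and the xenobiotic list 9 of 21.

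On the other side 4 of 11 tested T cell genes, 6 of 8 cytotoxic genes and 3 of 17 interferon-gamma response genes had an allograft change called above the isograft change. For Ido1 the changes differed by 5.53 (adjusted p = 6.13e-09 in the unfiltered fit). It averaged 2.44 ± 0.09 in day 14 isografts and 2.62 ± 0.48 in day 4 isografts, both at the low end of the scale. Ubd, Gzmb, Nkg7, Gzme and Pcsk5 were also higher in day 14 allografts, with isograft differences between -1.102 and 0.16. Gzmb fell in isografts by 1.102, and its changes differed by 3.59 (SE 0.40, adjusted p = 2.30e-07). Cxcl9 rose by 2.16 in allografts and by 2.11 in isografts, with 5.94 ± 0.83 in day 14 isografts and 3.83 ± 0.70 in day 4 isografts, both below the allografts of the same day. Jchain rose by 4.50 in allografts and by 4.69 in isografts. Ccl7, a monocyte chemokine, Top2a, the DNA topoisomerase of cycling cells, and Serpinb2, an inhibitor of plasminogen activators, were on this side with allograft differences of -0.09, -0.74 and 0.08 that were not called and isograft differences of -3.72, -3.91 and -3.27. The call of Serpinb2 was lost without allograft day 14 replicate 3 or 4, allograft day 4 replicate 5, isograft day 14 replicate 3 or 5, or isograft day 4 replicate 5, with adjusted p of 0.0505 to 0.0692. Mmp9 differed by 3.15 (SE 0.85, adjusted p = 0.0212). All 27 tested mitosis genes were lower in day 14 isografts, and for 13 of them the allograft change was above the isograft change. The mitosis list level at day 14 was 5.58 to 6.40 in allografts and 4.52 to 4.81 in isografts, whereas at day 4 it was 6.97 to 7.38 in allografts and 6.85 to 7.28 in isografts. Among hypoxia and glycolysis genes 18 of 22 were lower in day 14 isografts, and for 12 the allograft change was above the isograft change. DNA replication had 19 of 20 lower in isografts (5 above in the difference), and acute inflammation 10 of 16 (3 above). Complement had 5 of 11 higher and 2 lower in isografts, and 1 was called above in the difference. C2, C1s1 and C1ra rose by 1.78, 1.15 and 0.90 in isografts. Adh1 rose by 2.62 in isografts and 1.70 in allografts, and its difference was not called. For MHC class I, MHC class II and B and plasma cell genes none of 14, 9 and 8 tested genes was called by limma in the difference, with 7, 1 and 3 at an unadjusted p under 0.05.

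**Figure D5:**
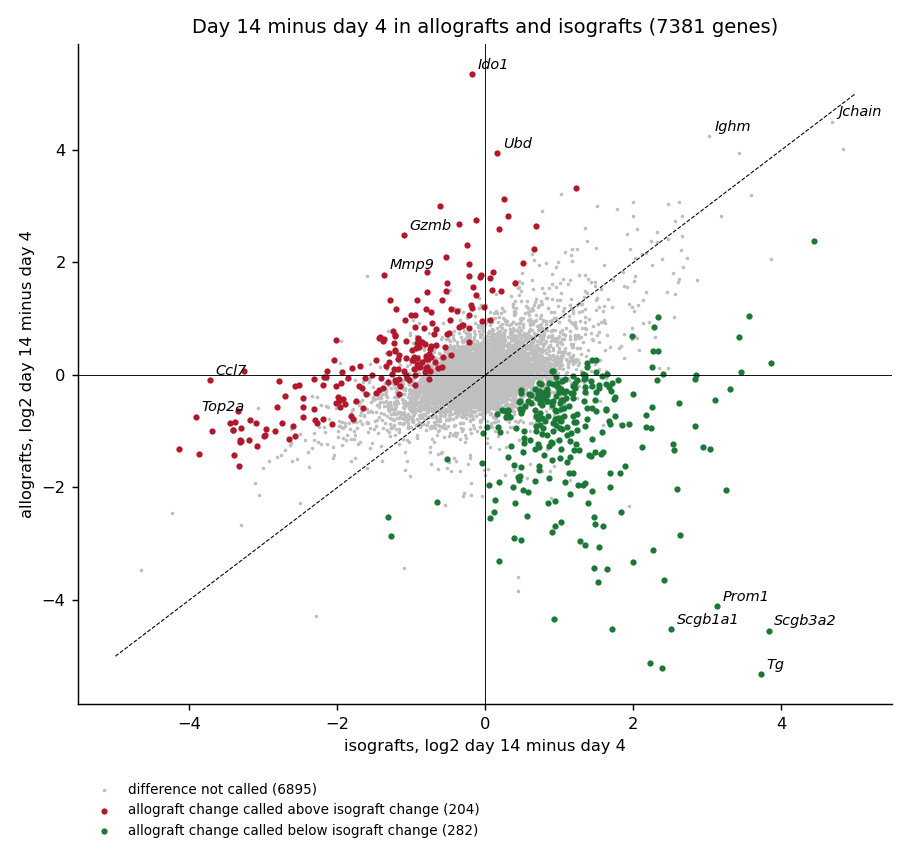
Log2 difference, day 14 minus day 4, of 7381 genes in isografts (x axis) and allografts (y axis), with a dashed line of equal change. Red points are the 204 genes whose allograft change was called above the isograft change, and green points the 282 called below. Ido1 and Ubd lie high with isograft values near 0, Tg and Scgb3a2 lie at the lower right, and Jchain lies near the line.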

How the data were processed

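Total RNA of tracheal grafts and native tracheas was read on an Affymetrix mouse array of 22690 probe sets. The authors deposited 1 table of log2 intensities, made with GCRMA 1.1.3 per the submitters' processing notes, which subtracts background by probe sequence and normalizes all arrays together, so low values are compressed and levels are relative between arrays. These values were used unchanged. Probe sets were named through the platform annotation, and 64 control probe sets were left out. Of the 11992 kept, 10977 had 1 gene, 447 several and 568 none, and genes without such a probe set are not analysed here. Probe sets with log2 of at least 5 in exactly 5 of the 10 arrays numbered 290, with a median of 5.036, and those in exactly 4 arrays, not kept, had a median of 4.932.

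A group-means model was fitted to all 35 arrays (7 groups of 5) with limma 3.58.1 in R 4.3.3. The contrasts were allograft day 14 minus day 4, the same in isografts, and the difference between them, with Benjamini-Hochberg adjustment over all kept probe sets and a threshold of 0.05. Named genes that passed the filter through 1 group alone have their adjusted p from the fit of all probe sets. List levels are means of log2 values over the genes of a list. Named genes were up to 4 called members each way per list (or the brightest where none was called), the 12 largest changes each way without overlap, the 10 largest differences from isografts each way, and a short fixed set. Members and lists were chosen with earlier results of these data known. On simulated data for the allograft contrast over 11992 probe sets, 62 of 100 changes of 1 log2 unit and 96 of 100 changes of 2 were recovered, with 7 false calls, and for the difference from isografts 35 and 85, with 5. The simulation drew independent normal noise for each probe set, with equal group means apart from these changes. Variation shared between probe sets was not simulated, so recovery and false calls in the real data may differ. Alternatives changed the filter, scaling, probe set rule, variance model, arrays fitted, threshold, replicate block and single arrays. The number of arrays limits the precision. Promoter windows came from RefSeq for GRCm38.p6, and no window was at hand for Ido1 or Gbp8. Figures were drawn with matplotlib 3.10.9.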

Additional observations from a re-analysis of the deposited data

Results flagged for a closer look

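Each gene named by the rule above and each list level was looked at in both allograft groups for an array far from its other 4. Of 340 groups of 5, 18 held such an array, with a gap over 0.71 of the group's range, where chance alone gives about 5%. In allografts, day 14 replicate 1 had 6.327 for Birc5 (other 4 arrays 7.048 to 7.142), 9.771 for C1qc (other 4 arrays 10.156 to 10.302) and 6.717 for the mean level of the cell death list (other 4 arrays 7.054 to 7.185). Day 14 replicate 3 had 9.281 for C1ra (other 4 arrays 8.744 to 8.896). Day 14 replicate 4 had 4.744 for Iyd (other 4 arrays 3.813 to 3.926) and 3.579 for the mean level of the thyroid and parathyroid list (other 4 arrays 3.343 to 3.389). Day 14 replicate 5 had 3.868 for Krt8 (other 4 arrays 6.145 to 6.828) and 5.636 for Serpinb2 (other 4 arrays 7.546 to 8.173). Day 4 replicate 1 had 7.541 for C2 (other 4 arrays 4.888 to 5.287), 12.991 for Fabp4 (other 4 arrays 11.817 to 12.079), 6.332 for Zic1 (other 4 arrays 4.891 to 5.22) and 8.205 for the mean level of the fat list (other 4 arrays 6.113 to 6.71). Day 4 replicate 3 had 5.988 for Ctsw (other 4 arrays 5.266 to 5.415). Day 4 replicate 4 had 5.53 for Serpinb11 (other 4 arrays 7.751 to 8.618) and 5.232 for Trp63 (other 4 arrays 6.491 to 6.955). Day 4 replicate 5 had 6.529 for Foxj1 (other 4 arrays 4.235 to 4.61), 5.169 for Il6 (other 4 arrays 7.732 to 8.747) and 5.987 for the mean level of the leukocyte adhesion list (other 4 arrays 6.108 to 6.149). Day 14 replicate 1 and day 4 replicate 1 were also the arrays with the highest fat level of their groups, and the part of tissue composition in these values was not tested.

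The allograft and isograft changes differed for the 10 genes with the largest differences each way, by limma's test of the difference itself. For Tg, Prom1, Ido1 and Gzme, which passed the filter through 1 day's allografts alone, the adjusted p is that of the unfiltered fit. Below the isograft change lay these, each as allograft change minus isograft change on the log2 scale. Tg had -9.043 (adjusted p = 8.84e-09), with -5.32 in allografts and 3.72 in isografts. Scgb3a2 had -8.371 (adjusted p = 9.45e-09), with -4.55 in allografts and 3.83 in isografts. Scgb3a1 had -7.599 (adjusted p = 9.11e-09), with -5.22 in allografts and 2.38 in isografts. Bpifa1 had -7.348 (adjusted p = 6.32e-10), with -5.12 in allografts and 2.22 in isografts. Prom1 had -7.236 (adjusted p = 1.42e-06), with -4.11 in allografts and 3.13 in isografts. Scgb1a1 had -7.031 (adjusted p = 1.07e-07), with -4.52 in allografts and 2.51 in isografts. Reg3g had -6.23 (adjusted p = 3.91e-06), with -4.51 in allografts and 1.72 in isografts. Bpifb1 had -6.048 (adjusted p = 1.04e-07), with -3.64 in allografts and 2.41 in isografts. Serpinb11 had -5.475 (adjusted p = 6.51e-06), with -2.85 in allografts and 2.63 in isografts. Muc5b had -5.372 (adjusted p = 2.69e-05), with -3.11 in allografts and 2.26 in isografts. In these 10 genes every isograft difference was above 0 and every allograft difference below 0, which their choice by the most negative difference favours. Of all 282 genes called below, 63 were called lower in allografts and higher in isografts. Above the isograft change lay the next 10. Ido1 had 5.528 (adjusted p = 6.13e-09), with 5.35 in allografts and -0.18 in isografts. Ubd had 3.781 (adjusted p = 2.51e-10), with 3.94 in allografts and 0.16 in isografts. Ccl7 had 3.624 (adjusted p = 0.000394), with -0.09 in allografts and -3.72 in isografts. Pcsk5 had 3.621 (adjusted p = 2.74e-05), with 3.00 in allografts and -0.62 in isografts. Gzmb had 3.59 (adjusted p = 2.30e-07), with 2.49 in allografts and -1.10 in isografts. Serpinb2 had 3.344 (adjusted p = 0.0282), with 0.08 in allografts and -3.27 in isografts. Top2a had 3.171 (adjusted p = 0.00105), with -0.74 in allografts and -3.91 in isografts. Mmp9 had 3.146 (adjusted p = 0.0212), with 1.78 in allografts and -1.36 in isografts. Nkg7 had 3.04 (adjusted p = 1.01e-05), with 2.69 in allografts and -0.35 in isografts. Gzme had 2.888 (adjusted p = 0.00161), with 2.76 in allografts and -0.13 in isografts. In 7 of these 10 the allograft difference was above 1.5, although that of Mmp9 was not called (adjusted p = 0.0607). Ccl7, Top2a and Serpinb2 had allograft differences that were not called and isograft differences below -3.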

How the results depend on the processing

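For allografts, the counts of called genes were 698 in all, 288 higher and 410 lower. They became 267 lower with log2 of at least 7 required, 1095 (468 higher, 627 lower) with array weights, 714 higher and 172 lower with arrays centred on the reference genes, 351 (152 and 199) at an adjusted p under 0.01 and 366 (181 and 185) with at least 2-fold. The difference from isografts gave 486 genes, 204 above and 282 below. It gave 287 (129 below) with log2 of at least 7, 313 above when only the compared arrays were fitted, 804 (420 above) with array weights and 254 (81 and 173) at 0.01. The isograft comparison, whose alternatives were added after seeing the data, gave 1808 genes, then 1143 (408 higher) with log2 of at least 7, 1762 higher and 473 lower with reference genes, 1030 (402 and 628) at 0.01 and 791 (353 and 438) with at least 2-fold. The cause was not tested, apart from stricter thresholds and the stricter filter, which leave fewer genes by construction. Leaving out each array in turn gave 516 to 683 allograft genes (205 to 293 higher, 285 to 396 lower), 398 to 544 for the difference (154 to 264 above, 225 to 305 below) and 1452 to 1676 for isografts (622 to 720 higher, 808 to 1032 lower). The lowest of the lower counts in allografts came without day 14 replicate 1. With the replicate block the counts were 730 (310 and 420), 515 (227 and 288) and 1839 (780 and 1059). The numbers were not shown to pair the arrays: deviations of same-numbered allografts correlated at 0.31, 0.131, 0.0783, 0.325 and -0.00854, and 2 of 5 correlated best with their own number. Same-numbered day 4 allografts and isografts correlated at 0.449, 0.101, 0.45, 0.345 and 0.0615 (3 of 5 best with their own number), day 14 allografts and isografts at -0.451 to 0.362, and isografts of both days at -0.236 to 0.402 (1 of 5 each). With the block Cxcl2 (adjusted p = 0.0632), Kit (0.0607), Prdm1 (0.0551) and Slc12a2 (0.055) lost their allograft calls, Mmp9 was called higher in day 14 allografts (0.0392), and no other named gene changed its call. Of the alternative values for the named genes, over both contrasts and all settings, 3406 left the call as it was, 258 lost it and 10 gained one. The 3406 include genes called in neither fit, whose direction may have changed. Among values called in either fit, 0 reversed direction. A fit of only the compared arrays kept 532 of the 698 allograft calls. In it Cd3e (adjusted p = 0.0557), Col2a1 (0.0527), Col9a1 (0.0597) and Ltf (0.101) were not called. The named genes Ccl11, Ccl8, Clec10a, Col10a1, Eln, Itgb7, Kit, Ngfr and Tk1 also lost their calls there (adjusted p of 0.0501 to 0.12). With reference gene centring 12 named genes lost their call, with adjusted p of 0.0622 to 0.246. Dim genes near the floor have understated differences.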
